A study of Mus musculus with 8 samples.

Results

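Fatty acid oxidation breaks fatty acids down in mitochondria and peroxisomes, and its genes are followed here in the livers of mice with and without Btg2. The set held 44 genes of fatty acid uptake and activation, the carnitine shuttle, mitochondrial and peroxisomal beta-oxidation, electron transfer and known targets of the nuclear receptor PPAR-alpha. Its members were chosen by name for their known role, but with earlier results of these data known, so their counts are description and no list test is given. Each member was read through the probes whose RefSeq accession carries its symbol. All 44 had a probe, among 20284 genes with a named probe, and 43 of them were among the 14564 genes tested. The exception was Abcd2, a peroxisomal fatty acid transporter, which only 2 of the 8 arrays measured well above background. Its signals ran from 0.0305 to 0.182 times the 75th percentile of the array.

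The series compared liver RNA of C57BL/6J mice lacking Btg2 (also named TIS21 or PC3), an antiproliferative gene of the BTG/TOB family, with wild type. Adult wild-type and adult knockout samples came from males of 10 weeks that had all gone without food for 20 h, so no fed adult is compared. Fetal wild-type and fetal knockout samples were pools of more than 3 livers of embryonic day 13.5, each pool from fetuses of 1 womb. Each of these 4 RNA samples was put on 2 arrays as technical duplicates. Every p-value below therefore measures the spread between arrays of the same RNA and not the spread between animals, and the labels do not state how many adult mice stood behind a sample. They also do not state which part of Btg2 was removed.

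In a fasting mouse, the liver takes up fatty acids released from fat tissue and oxidises them. Long-chain fatty acids are activated to acyl-CoA, carried into mitochondria as carnitine esters and shortened there in repeated cycles of dehydrogenation, hydration, dehydrogenation and thiolysis, whose electrons reach the respiratory chain through the electron transfer flavoprotein. Peroxisomes shorten very long and branched chains by a parallel set of enzymes, and the ligand-activated receptor PPAR-alpha is known for raising the transcription of many genes of both pathways during fasting.

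PPAR-alpha binds, with its partner RXR, to a direct repeat of AGGTCA with 1 base between the copies, so the promoters of the members are shown with that repeat marked. RefSeq (GRCm38.p6) promoter windows were at hand for 37 of the 44 members, and the 250 bases before the start site were searched on both strands. No member window held the exact repeat (0.037% of all 27025 windows did). With up to 1 mismatch it was found in 1 of 37, or 2.70% (0.466% of all windows), and with up to 2 mismatches in 5 of 37, or 13.5% (3.18% of all windows). A single exact AGGTCA, which every exact repeat also holds, stood in 8 of 37, or 21.6% (13.8% of all windows). The lines below give the 5 windows with a repeat of at most 2 mismatches, with the repeat in capitals, and then those of Cpt1a and Acadm with the single copy in capitals (TGACCT where it lies on the other strand). All read from 5′ to 3′ on the strand of the gene.
Fabp1, chr6:71199797-71199839, plus strand, 1 mismatch: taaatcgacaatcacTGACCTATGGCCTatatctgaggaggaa
Creb3l3, chr10:81092773-81092815, minus strand, 2 mismatches: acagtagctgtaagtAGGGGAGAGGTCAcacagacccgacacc
Cd36, chr5:17835932-17835974, minus strand, 2 mismatches: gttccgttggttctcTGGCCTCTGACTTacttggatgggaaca
Echs1, chr7:140116477-140116519, minus strand, 2 mismatches: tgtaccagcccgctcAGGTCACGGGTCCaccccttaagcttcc
Etfa, chr9:55512293-55512335, minus strand, 2 mismatches: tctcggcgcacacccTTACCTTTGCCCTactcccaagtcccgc
Cpt1a, chr19:3323192-3323227, plus strand, single copy: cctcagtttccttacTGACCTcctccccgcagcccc
Acadm, chr3:153944872-153944893, minus strand, single copy: gTGACCTtcgggctccggtgac
The marked bases begin 67 bases before the start site in Fabp1, 209 in Creb3l3, 63 in Cd36, 83 in Echs1, 77 in Etfa, 94 in Cpt1a and 249 in Acadm. Of the 10 members called lower in the adult knockout below, 8 had a window, 1 of these (Cpt1a) held the single copy and 0 held the repeat. A match is a description of these letters and not a bound site, and elements outside the window were not searched.

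Signals are given below as multiples of the 75th percentile of signal on the same array, and differences on the log2 scale as ± the standard error of the fit (SE, 2 arrays per group). A gene was called where its adjusted p (limma, Benjamini-Hochberg over 14564 genes) was under 0.05 and its difference at least 2-fold. The unscaled 75th percentile of signal was 132 to 171 on adult and 278 to 333 on fetal arrays, 39.6% to 43.6% and 50.1% to 62.4% of spots were well above background, and duplicates correlated at r of 0.992 to 0.997 across genes. Among the members, the gap between duplicates had a median of 0.03 to 0.06 (log2) and reached 0.37 for Crat in the adult knockout. Btg2 measured 1.12 and 1.20 in adult wild type and 6.22 and 6.42 in fetal wild type, and it was not well above background on the 4 knockout arrays. Hepatocyte markers summed to 7102 to 8211 on adult and 968 to 991 on fetal arrays. All 43 tested members were well above background on all 8 arrays, so none entered the test through a single group.

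Some of the fatty acid oxidation members were called lower in the adult knockout liver than in the adult wild-type liver. Of 43 members, 10 were called lower and 0 higher, against 2.53% and 4.96% of all genes tested. The 10 were Ehhadh, Vnn1, Pdk4, Pex11a, Hadhb, Decr2, Acaa1a, Decr1, Acsl1 and Cpt1a. The median difference of the members was -0.73, with a range from -1.97 to 0.32, and that of all genes was -0.10. Of all genes tested, 58.6% were below 0 as scaled here. By adjusted p alone, 38 members were lower and 1 higher, against 32.8% and 22.8% of all genes. The 2 knockout arrays did not overlap the 2 wild-type arrays for 40 of 43 members, as for 77.5% of all genes.

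How many members were called depended on the scaling. Under 5 other scalings or sources of the values the count of members called lower was 3 or 4, always including Ehhadh, Pdk4 and Vnn1, because the other called members lie close to the 2-fold limit. The median of all genes moved from -0.10 to between 0.01 and 0.09 under these scalings. Relative to that median, the members' median was -0.63 as scaled here and -0.63 to -0.55 otherwise. By adjusted p alone, 34 to 36 members were lower under 4 of these scalings and 13 under median scaling. Members higher by adjusted p numbered 3 to 5 under those 4 scalings and 0 under median scaling, against 1 as scaled here. Of the 43 members, 36 were below 0 under all 6 settings, Acsl5, Acads, Acad10 and Pecr were above 0 under all, and Fabp1, Acaa2 and Etfa changed sign.

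**Figure D1:**
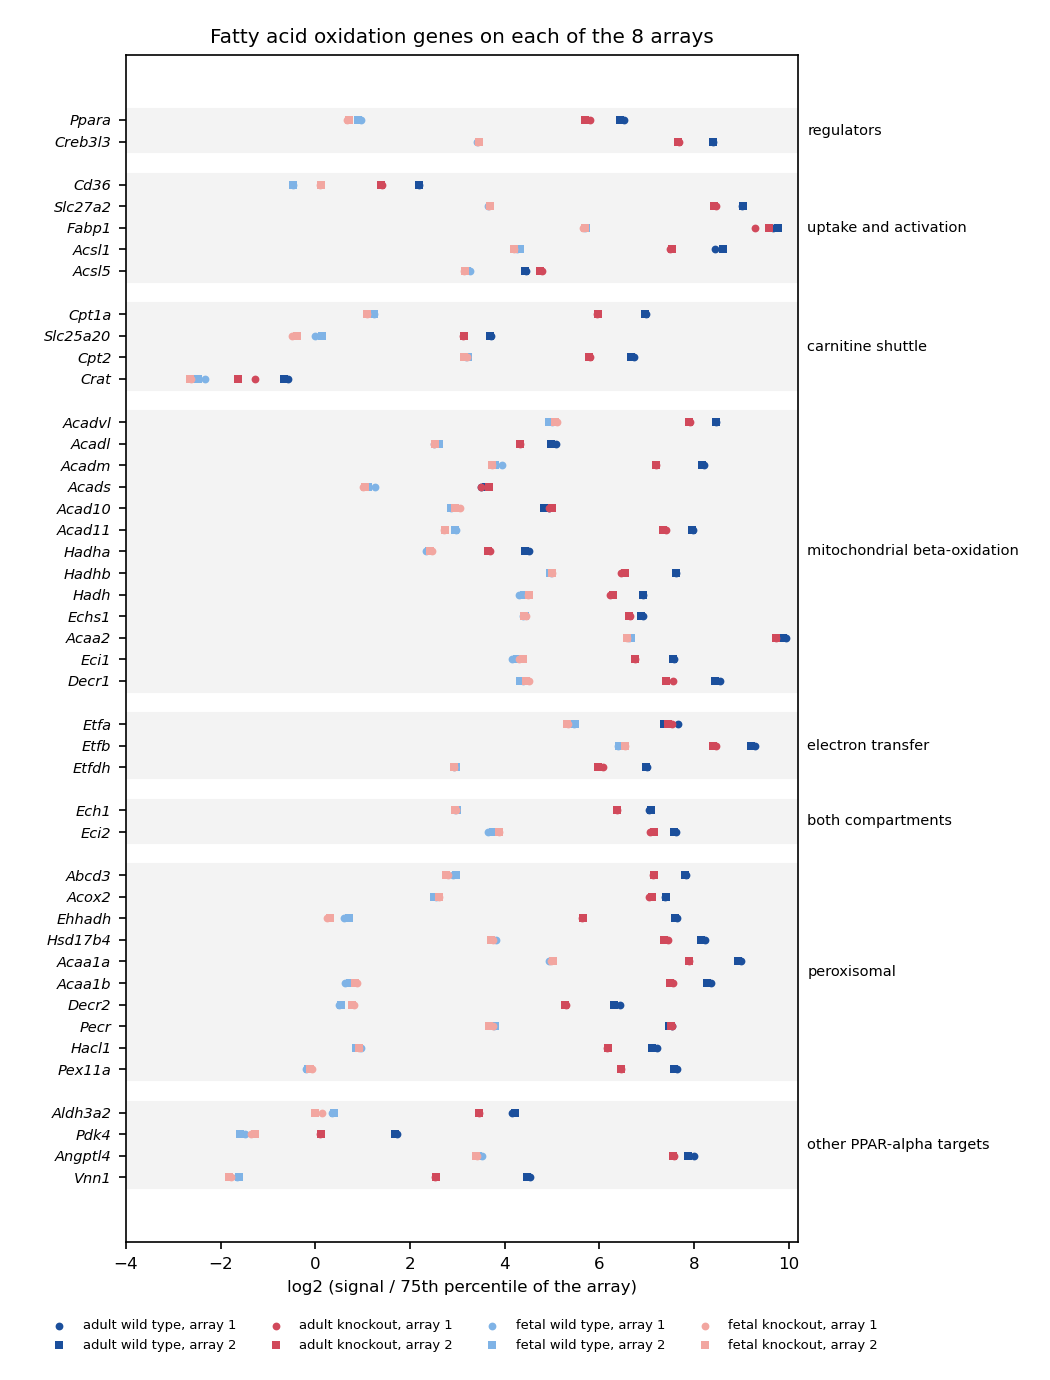
Signal of each of the 43 tested members on each of the 8 arrays, as log2 of the multiple of the array's 75th percentile (horizontal axis), grouped by role; circles and squares are the 2 arrays of a sample. The adult samples (dark blue wild type, red knockout) lie to the right of the fetal pools for every member. As scaled here the mean of the adult knockout arrays lies to the left of that of adult wild type for all but 4 members. Among the rest, the Etfa arrays interleave.

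Markers of other cells moved with the adult comparison as well. All 11 tested macrophage markers were called higher in the adult knockout, with a median of 2.95, and their summed signal was 58.7 and 55.9 in wild type against 337 and 345 in knockout. Of 13 hepatocyte markers, 0 were called and their median was -0.18, with sums of 8107 and 8211 in wild type against 7102 and 7164 in knockout. Adipocyte markers summed to 29.7 and 29.5 against 14.6 and 14.7, but Plin1 and Lep were not well above background on any array, and Adipoq on 2. Of 8 adipocyte genes 4 were tested, and only Cidec was called, lower. The differences of the 4 ran from -3.82 to 0.76, with a median of -0.66 and 1 above 0. The intestinal epithelium list summed to 283 and 282 against 102 and 102, with 3 of 9 genes not well above background on any adult array. Of its 6 tested genes, Fabp2, Lgals4 and Apoa4 were called lower and Vil1, Alpi and Sis higher, with a median of 0.35. In such bulk RNA fewer cells of a type and less RNA per cell cannot be told apart, and the part of these markers in the results on fatty acid oxidation was not tested.

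Both transcriptional regulators in the set were lower in the adult knockout by less than 2-fold. Ppara, which encodes PPAR-alpha itself, measured 91.6 and 87.2 in adult wild type and 55.6 and 52.0 in adult knockout, with 1.96 and 1.86 in fetal wild type and 1.59 and 1.65 in fetal knockout. On this probe each knockout pair lay below its wild-type pair without overlap. The differences were -0.73 ± 0.05 in the adult (adjusted p = 1.2e-05, limma) and -0.24 ± 0.05 in the fetus (adjusted p = 0.011, limma). Both other Ppara probes were lower in the adult (-0.83 and -0.88), but in the fetus they gave -0.22 and 0.14, so the probes disagree on the fetal direction. Creb3l3 encodes CREB-H, a hepatic transcription factor that acts with PPAR-alpha in fasting. Its adult difference was -0.72 ± 0.02 and its fetal difference 0.00 ± 0.02.

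Fatty acid uptake and activation gave 1 call in 5. Acsl1, the main long-chain acyl-CoA synthetase of liver, measured 347 and 394 in adult wild type, 182 and 185 in adult knockout, 19.2 and 19.9 in fetal wild type, and 18.3 and 18.4 in fetal knockout. On this probe the adult pairs stood apart and the fetal pairs nearly met. The adult difference was -1.01 ± 0.06 (adjusted p = 6.8e-06, limma). It fell short of the 2-fold limit without adult wild-type array 2 (-0.92) or without adult knockout array 1 (-0.996). The fetal difference was -0.09 ± 0.06. A dimmer probe of Acsl1 gave -1.03 in the adult and -0.36 in the fetus, so the probes differ on the size of the fetal difference.

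Cd36, a fatty acid translocase of the plasma membrane, differed in opposite directions at the 2 stages. Its signal was 4.55 and 4.60 in adult wild type, 2.65 and 2.62 in adult knockout, 0.717 and 0.723 in fetal wild type, and 1.07 and 1.08 in fetal knockout. Knockout was thus below wild type in the adult and above it in the fetus, with no overlap in either. The differences were -0.80 ± 0.04 (adjusted p = 6e-06, limma) and 0.58 ± 0.04 (adjusted p = 0.00036, limma), both under 2-fold. The fetal difference stayed between 0.44 and 0.62 under the 6 scalings, and the adult difference between -0.80 and -0.61.

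The remaining uptake and activation members differed less. Slc27a2, a very long-chain acyl-CoA synthetase and transporter, gave an adult difference of -0.57 ± 0.03. Fabp1, the liver fatty acid binding protein, gave -0.29 ± 0.09, and its duplicates in adult knockout were 624 and 767. Acsl5, another acyl-CoA synthetase, was the 1 member higher by adjusted p as scaled here, at 0.32 ± 0.03 (adjusted p = 7.9e-05, limma). Its difference reached up to 0.51 under the other scalings, but that value, under median scaling, did not pass the test (adjusted p = 0.22, limma).

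The carnitine shuttle was lower in the adult knockout in each of its 4 members, with 1 call. Cpt1a, the outer-membrane carnitine palmitoyltransferase that controls entry into mitochondria, measured 126 and 124 in adult wild type and 61.9 and 63.2 in adult knockout. In the fetal pools it measured 2.35 and 2.37 in wild type and 2.13 and 2.13 in knockout. Knockout lay below wild type at both stages without overlap, far more so in the adult, where the difference was -1.003 ± 0.02 (adjusted p = 1.7e-07, limma) against -0.15 ± 0.02 in the fetus. The adult value sits on the 2-fold limit and fell short of it without adult wild-type array 1 or without adult knockout array 1 (both -0.99). A dimmer probe of Cpt1a gave -0.87 in the adult and -1.01 in the fetus, so the probes disagree on the fetal pools.

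Slc25a20, the carnitine-acylcarnitine translocase of the inner membrane, had the lowest fetal difference among the members, each read from its brightest probe. It measured 13.1 and 12.9 in adult wild type, 8.76 and 8.78 in adult knockout, 1.00 and 1.10 in fetal wild type, and 0.710 and 0.760 in fetal knockout. Knockout was lower at both stages without overlap. The differences were -0.57 ± 0.05 (adjusted p = 9.3e-05, limma) and -0.52 ± 0.05 (adjusted p = 0.0014, limma), and the adult minus the fetal difference was -0.05 ± 0.08 (adjusted p = 0.59, limma), which did not pass the test.

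Cpt2, the inner-membrane transferase that hands the chain back to CoA, measured 106 and 101 in adult wild type, 56.2 and 55.3 in adult knockout, 9.09 and 9.34 in fetal wild type, and 9.26 and 8.87 in fetal knockout. The adult pairs were separate, whereas the fetal pairs overlapped. Its adult difference was -0.89 ± 0.03 (adjusted p = 1.2e-06, limma). A probe with a far dimmer signal gave 0.22 in the adult and -0.53 in the fetus, so the direction for Cpt2 rests on the brighter probe. Crat, the carnitine acetyltransferase, lay near the low end of the signals at 0.671 and 0.628 in adult wild type and 0.416 and 0.322 in adult knockout, with a difference of -0.83 ± 0.15.

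Mitochondrial beta-oxidation proper had 13 members, of which 2 were called lower in the adult knockout, Hadhb and Decr1. Their median difference was -0.67 and 11 of 13 were below 0 as scaled here, against 58.6% of all genes tested. The acyl-CoA dehydrogenases carry out the first step of each cycle and differ in the chain length they prefer. Acadm, the medium-chain enzyme, measured 299 and 289 in adult wild type, 148 and 147 in adult knockout, 15.3 and 13.8 in fetal wild type, and 13.4 and 13.4 in fetal knockout. The adult knockout arrays lay well below wild type and just inside the 2-fold limit, at -0.996 ± 0.05 (adjusted p = 3.1e-06, limma), so it was not called. The long-chain enzymes Acadl and Acadvl gave -0.71 ± 0.05 and -0.55 ± 0.03, and Acad11 gave -0.59 ± 0.03. The short-chain enzyme Acads (0.04 ± 0.07, adjusted p = 0.66, limma) and the related Acad10 (0.09 ± 0.05, adjusted p = 0.13, limma) did not pass the test in the same samples as scaled here. Acad10 gave 0.24 under quantile normalization (adjusted p = 0.0021, limma) and 0.28 under median scaling (adjusted p = 0.61, limma).

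The trifunctional protein performs the remaining steps on long chains, with its alpha subunit encoded by Hadha and its beta subunit by Hadhb. Hadha measured 23.0 and 21.5 in adult wild type, 12.9 and 12.5 in adult knockout, 5.07 and 5.28 in fetal wild type, and 5.54 and 5.38 in fetal knockout. Hadhb measured 196 and 197 in adult wild type, 88.0 and 93.1 in adult knockout, 31.5 and 31.1 in fetal wild type, and 31.9 and 31.9 in fetal knockout. For both subunits the adult knockout arrays lay below those of wild type without overlap. The fetal differences, 0.08 ± 0.04 and 0.03 ± 0.03, did not pass the test. The adult differences were -0.81 ± 0.04 for Hadha and -1.12 ± 0.03 for Hadhb (adjusted p = 3.9e-07, limma), and only the beta subunit passed 2-fold.

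Decr1, the mitochondrial dienoyl-CoA reductase that makes polyunsaturated chains fit for the cycle, measured 375 and 347 in adult wild type and 188 and 170 in adult knockout. Its fetal signals were 21.1 and 20.1 in wild type and 22.7 and 22.0 in knockout. On this probe the adult knockout arrays lay below, and the fetal knockout arrays above, those of wild type. The adult difference was -1.02 ± 0.06 (adjusted p = 8e-06, limma), and -0.96 without adult wild-type array 1 or -0.94 without adult knockout array 2, both short of 2-fold. The fetal difference was 0.12 ± 0.06 (adjusted p = 0.19, limma). A far dimmer Decr1 probe gave -0.85 in the adult and -0.10 in the fetus, so the probes disagree on the fetal sign. Eci1, the enoyl-CoA isomerase of the same side path, gave -0.81 ± 0.04.

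The enzymes of the later steps on shorter chains were uneven. Hadh, the hydroxyacyl-CoA dehydrogenase, gave -0.67 ± 0.04. Echs1, the short-chain hydratase, gave -0.27 ± 0.03, and Acaa2, the thiolase, -0.18 ± 0.04, which turned to 0.11 at the other extreme of the scalings. The electron transfer genes were likewise uneven. Etfdh, the membrane oxidoreductase, gave -0.98 ± 0.04 and Etfb, the beta subunit of the flavoprotein, -0.81 ± 0.04. Etfa, its alpha subunit, gave -0.03 ± 0.08 (adjusted p = 0.80, limma), with overlapping arrays, and its dimmer probe 0.41.

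Peroxisomal genes supplied 4 of the 10 calls, from 10 tested members with a median difference of -0.89. Ehhadh encodes the bifunctional enzyme of the peroxisomal pathway and is a classical PPAR-alpha target. It measured 199.7 and 192.8 in adult wild type and 49.8 and 50.2 in adult knockout, and 1.52 and 1.63 in fetal wild type against 1.19 and 1.23 in fetal knockout. Knockout was lower without overlap at both stages. The adult difference, -1.97 ± 0.04 (adjusted p = 9.9e-08, limma) or 3.93-fold, was the largest of all members, and the fetal difference was -0.38 ± 0.04 (adjusted p = 0.0014, limma).

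Pex11a, which promotes the division of peroxisomes, measured 199.4 and 192.4 in adult wild type and 87.8 and 87.7 in adult knockout. In the fetus it was 0.876 and 0.893 in wild type and 0.960 and 0.930 in knockout. The adult knockout arrays lay far below wild type, whereas the fetal difference was 0.10 ± 0.03 (adjusted p = 0.055, limma). The adult difference was -1.16 ± 0.03 (adjusted p = 2.4e-07, limma), and it stood at -0.97 under median scaling.

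Decr2, the peroxisomal counterpart of Decr1, measured 86.4 and 79.9 in adult wild type, 39.1 and 38.9 in adult knockout, 1.42 and 1.45 in fetal wild type, and 1.76 and 1.71 in fetal knockout. Its adult difference was -1.09 ± 0.04 (adjusted p = 1.1e-06, limma), and its fetal difference was 0.28 ± 0.04 (adjusted p = 0.0039, limma), again of opposite sign and without overlap.

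The peroxisomal thiolases Acaa1a and Acaa1b cleave the shortened chain. They are close paralogs, so a probe may report part of the other transcript. Acaa1a measured 513 and 489 in adult wild type, 237 and 239 in adult knockout, 30.6 and 32.5 in fetal wild type, and 31.5 and 32.4 in fetal knockout. Acaa1b measured 327 and 311, 189 and 182, 1.55 and 1.66, and 1.84 and 1.80 in the same order. Both were lower in the adult knockout without overlap, Acaa1a by -1.07 ± 0.04 (adjusted p = 1.1e-06, limma) and Acaa1b by -0.79 ± 0.04 (adjusted p = 5.9e-06, limma). In the fetal pools the arrays overlapped for Acaa1a and not for Acaa1b.

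Hsd17b4 encodes the D-bifunctional protein, which handles branched and bile acid chains. It measured 300.9 and 286 in adult wild type, 176 and 165 in adult knockout, 14.1 and 13.1 in fetal wild type, and 13.4 and 13.0 in fetal knockout. The adult pairs were separate and the fetal pairs overlapped, with an adult difference of -0.78 ± 0.05 (adjusted p = 1e-05, limma). Hacl1, the lyase of alpha-oxidation, was just inside the limit at -0.99 ± 0.05. Abcd3, a peroxisomal acyl-CoA transporter, gave -0.68 ± 0.03 and Acox2, the branched-chain oxidase, -0.31 ± 0.03. Pecr, the trans-enoyl-CoA reductase, gave 0.03 ± 0.03 with overlapping arrays as scaled here. Its difference was 0.29 under quantile normalization (adjusted p = 1e-04, limma) and 0.22 under median scaling (adjusted p = 0.73, limma). Ech1 and Eci2, found in both organelles, gave -0.69 ± 0.03 and -0.48 ± 0.04.

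The 4 other PPAR-alpha targets had the lowest median of any group, -1.16, with 2 called. Vnn1, a pantetheinase, measured 23.1 and 22.2 in adult wild type and 5.77 and 5.89 in adult knockout, and 0.316 and 0.327 in fetal wild type against 0.291 and 0.281 in fetal knockout. The adult knockout was far below wild type, by -1.95 ± 0.05 (adjusted p = 2e-07, limma) or 3.87-fold, and the fetal pairs differed by -0.17 ± 0.05.

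Pdk4 encodes the kinase that switches off pyruvate dehydrogenase in fasting and so spares glucose. It measured 3.33 and 3.20 in adult wild type, 1.07 and 1.08 in adult knockout, 0.359 and 0.334 in fetal wild type, and 0.390 and 0.412 in fetal knockout. The adult difference was -1.60 ± 0.07 (adjusted p = 3.1e-06, limma) or 3.03-fold, and the fetal difference 0.21 ± 0.07 (adjusted p = 0.084, limma). Aldh3a2, a fatty aldehyde dehydrogenase, gave -0.72 ± 0.05. Angptl4, a secreted inhibitor of lipoprotein lipase, gave -0.37 ± 0.04.

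In the fetal pools no member differed by 2-fold on its brightest probe. Dimmer probes, which did not enter the counts, ran from -1.01 for Cpt1a to 0.14 for Ppara. Of 43 members, 0 were called higher and 0 lower (limma), against 0.522% and 1.44% of all genes tested. At those shares a count of 0 among 43 genes does not set the members apart. Their median difference was -0.02, with a range from -0.52 for Slc25a20 to 0.58 for Cd36. As scaled here 23 of 43 members were below 0 (19 to 29 under the other scalings), against 45.6% of all genes tested. By adjusted p alone 8 were higher and 8 lower, against 13.9% and 8.60% of all genes. The arrays of knockout and wild type did not overlap for 34 of 43 members, as for 71.3% of all genes. Besides Slc25a20 and Ehhadh, the lowest fetal differences were those of Aldh3a2 (-0.31 ± 0.05), Ppara (-0.24 ± 0.05), Crat (-0.23 ± 0.15) and Acad11 (-0.23 ± 0.03). Besides Cd36, the highest were those of Decr2 (0.28 ± 0.04), Pdk4 (0.21 ± 0.07), Acaa1b (0.19 ± 0.04) and Eci2 (0.17 ± 0.04).

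**Figure D2:**
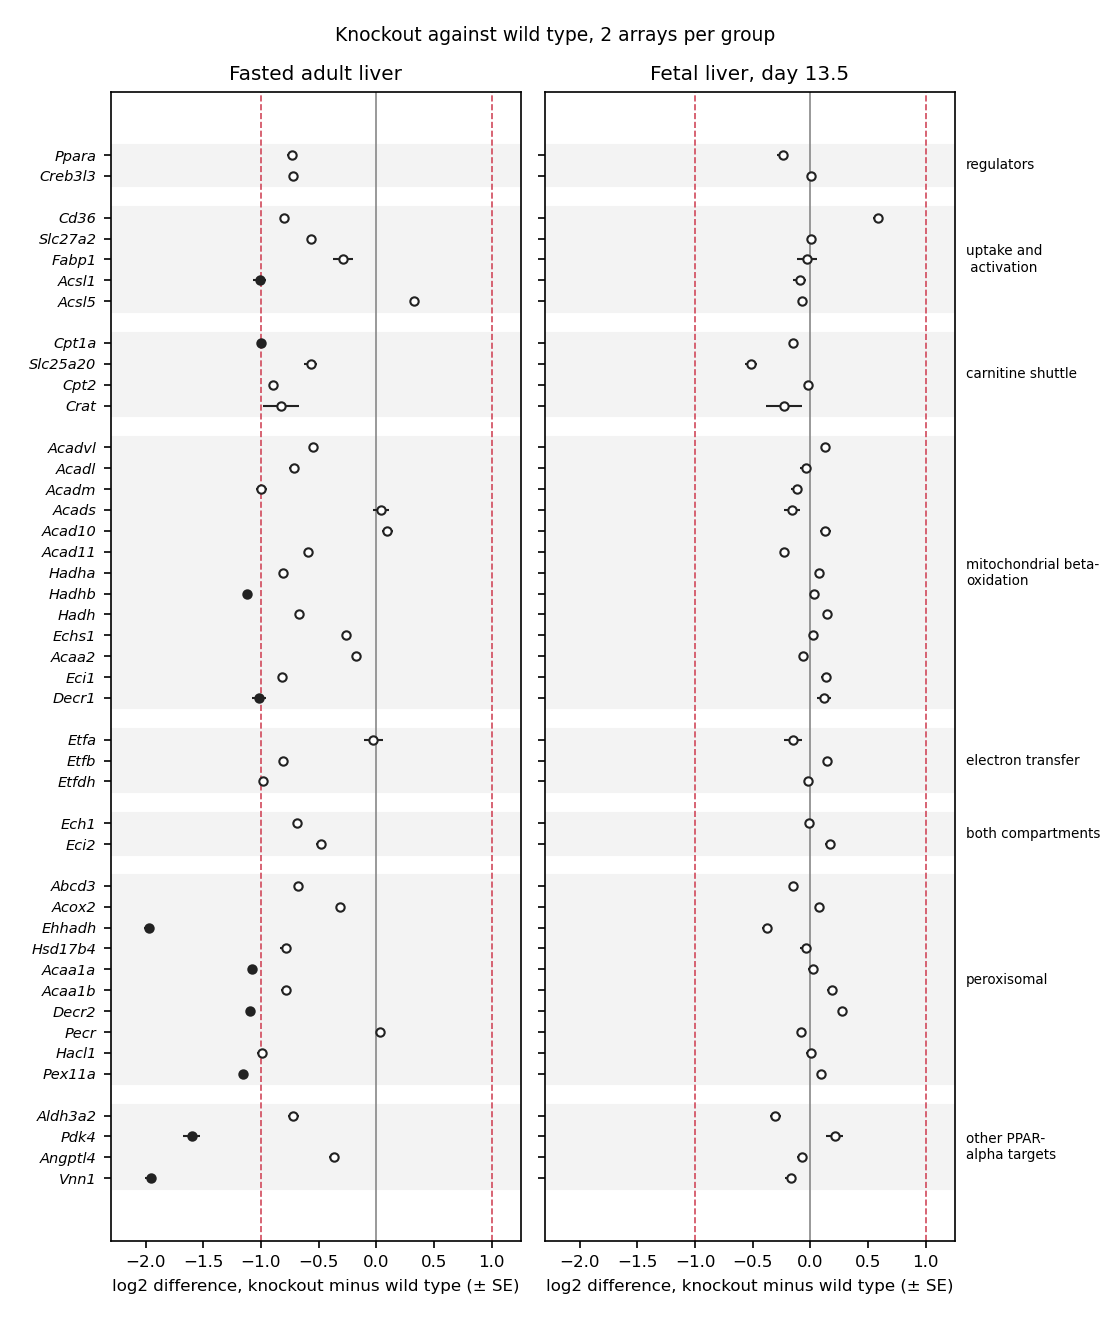
Knockout minus wild type (log2 difference, horizontal axis, with bars of ± 1 SE) for each member in fasted adult liver (left) and fetal liver (right); filled points were called and dashed lines mark the 2-fold limit. As scaled here the adult points centre on -0.73 with 10 called, and the fetal points centre on -0.02 with none called.

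The adult and fetal effects of the genotype were then set against each other in a direct test. The adult difference minus the fetal difference was called lower for 9 of 43 members and higher for 0, against 3.69% and 6.05% of all genes tested, and the members' median was -0.72 against -0.10 for all genes. The 9 were Pdk4 (-1.81 ± 0.10), Vnn1 (-1.78 ± 0.07), Ehhadh (-1.59 ± 0.06), Cd36 (-1.38 ± 0.06), Decr2 (-1.37 ± 0.06), Pex11a (-1.25 ± 0.04), Hadhb (-1.15 ± 0.04), Decr1 (-1.14 ± 0.08) and Acaa1a (-1.09 ± 0.05). Cd36 thus entered through opposite shifts, each under 2-fold. Acsl1 and Cpt1a, called in the adult, were not called here at -0.92 ± 0.08 and -0.86 ± 0.03. Including Acsl1, 6 members lay just inside the limit, between 0.9 and 1 in size. Under the 5 other scalings 6 of the 9 were called each time, Cd36, Ehhadh, Decr2, Pex11a, Pdk4 and Vnn1.

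By role, the median of this double difference was -0.98 for peroxisomal members and -0.68 for mitochondrial beta-oxidation. It was -0.95 for electron transfer, -0.73 for the carnitine shuttle, -0.67 for the enzymes of both compartments, -0.61 for the regulators, -0.58 for uptake and activation and -1.10 for the other PPAR-alpha targets. The groups were small, their ranges overlap, and they were not tested against each other.

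**Figure D3:**
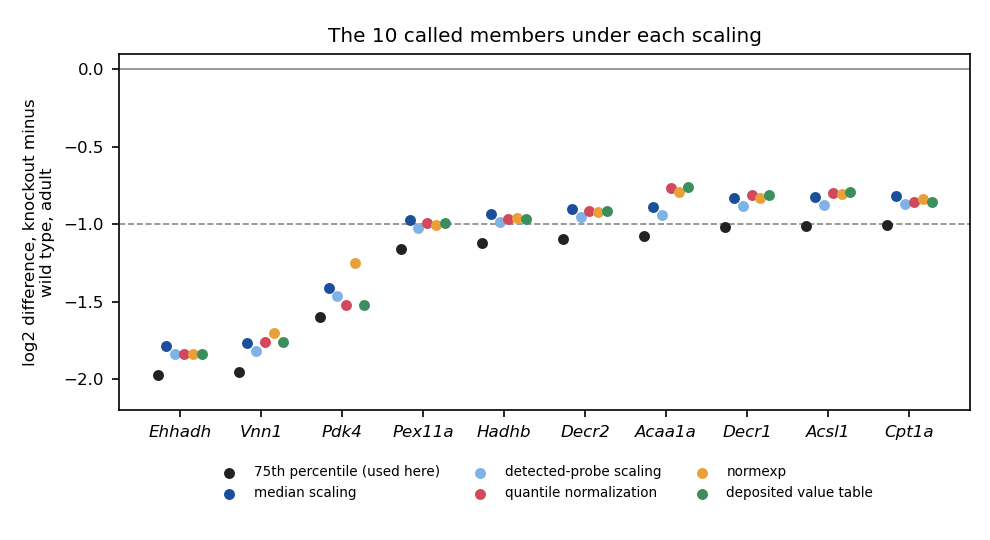
Adult knockout minus wild type (log2 difference, vertical axis) for the 10 called members under the scaling used here (black) and the 5 alternatives (colours); the dashed line marks the 2-fold limit. Ehhadh, Vnn1 and Pdk4 stay below it throughout, and the other 7 cross it under at least 3 of the alternatives while keeping their sign.

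Adult and fetal liver differed more for these genes than knockout and wild type did. In wild type, 43 of 43 members were called higher in the adult and 0 lower, against 27.3% and 27.9% of all genes tested, with a median of 3.99 and a range from 1.20 for Acsl5 to 7.79 for Pex11a. In knockout, 43 of 43 were again called higher and 0 lower, against 25.8% and 27.8% of all genes, with a median of 3.32 and a range from 1.18 for Crat to 6.67 for Acaa1b. Under the other scalings 41 or 42 members stayed called in wild type and 39 to 43 in knockout. The adult arrays lay above the fetal arrays without overlap for all 43 members in both genotypes, as 92.7% and 94.3% of all genes did not overlap in either direction.

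Peroxisomal members spanned 3.72 to 7.79 in wild type (median 5.37), and mitochondrial beta-oxidation spanned 2.01 to 5.02 (median 2.65). The ranges overlap, since the mitochondrial members Acad11, Acadm and Decr1 lay above the lowest peroxisomal member, Pecr at 3.72. These groups were not tested against each other. The roles were assigned by hand, and Acad11, the top of the mitochondrial range at 5.02, could be placed differently. The largest multiples in wild type belonged to Pex11a, 221-fold higher in the adult, to Acaa1b, 199.6-fold, to Ehhadh, 125-fold, and to Hacl1, 75.9-fold. The smallest belonged to Acsl5, 2.30-fold, and Crat, 3.44-fold. Regulators had a median of 5.25, uptake and activation 4.02, the carnitine shuttle 3.56 and electron transfer 2.84, while the enzymes of both compartments had 4.0 and the other PPAR-alpha targets 4.14. Ppara itself was 46.7-fold higher in adult wild type than in fetal wild type, and 33.2-fold in knockout.

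In knockout the corresponding medians were 4.48 for peroxisomal members and 2.41 for mitochondrial beta-oxidation. They were 4.64 for regulators, 3.32 for uptake and activation, 3.1 for the carnitine shuttle, 2.17 for electron transfer, 3.33 for both compartments and 3.78 for the other PPAR-alpha targets. Gene by gene, the gap between genotypes in this comparison is the double difference given above, since it is made of the same 4 samples. The gap between the medians of a role need not equal the median double difference of that role. The adults were fasted males, while for the fetal pools the labels state both sexes and no fasting, so stage, fasting and sex cannot be told apart. Cell types moved with the stage too. Hepatocyte markers were called higher in adult wild type in 13 of 13 (median 3.58) and erythroid markers lower in 10 of 11 (median -7.10). The remaining erythroid marker, Hemgn, was called higher at 2.53. Erythroid markers summed to 702 and 696 in adult wild type and to 768 and 772 in fetal wild type. The part of these markers in the members' differences was not tested.

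**Figure D4:**
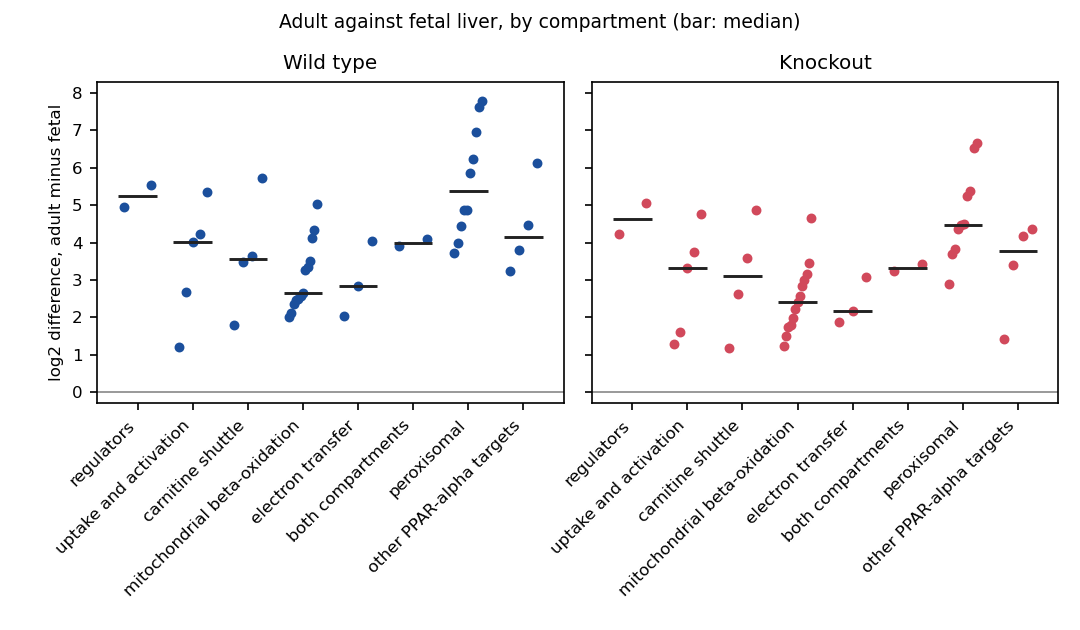
Adult minus fetal liver (log2 difference, vertical axis) for each member by role (horizontal axis) in wild type (left) and knockout (right); the bar is the median of the role. All points lie above 1 as scaled here, with peroxisomal members centred on 5.37 in wild type and 4.48 in knockout and mitochondrial beta-oxidation on 2.65 and 2.41.

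Other genes around the pathway give the setting. Of 51 tested further genes of fatty acid handling and oxidation, 7 were called lower and 2 higher in the adult knockout. The shares over all genes tested were 2.53% and 4.96%, and the median of the 51 was -0.09. Among the called genes, the 5 with the largest differences were Slc27a1, Fabp5, Cpt1b, Hsd17b10 and Fabp2. Slc27a1, a fatty acid transport protein, measured 5.89 and 6.35 in adult wild type and 1.01 and 0.993 in adult knockout, a difference of -2.61 ± 0.09 (adjusted p = 1.1e-06, limma). Hsd17b10, a mitochondrial short-chain dehydrogenase, gave -1.66 ± 0.03 and Fabp2, the intestinal fatty acid binding protein and also a gene of the intestinal list, -1.39 ± 0.03. Cpt1b, the muscle form of the outer-membrane transferase, gave -1.75 ± 0.24, with 1 of 2 adult knockout arrays well above background. Fabp5, the epidermal fatty acid binding protein, was higher by 1.92 ± 0.04, from 2.25 and 2.25 to 8.48 and 8.55, beside the higher macrophage markers, whose part in it was not tested.

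In the fetal pools 1 of these 51 genes was called higher and 0 lower, against 0.522% and 1.44% of all genes tested. This was Fabp3, the heart fatty acid binding protein, which measured 3.73 and 3.64 in wild type and 8.44 and 8.46 in knockout (1.20 ± 0.21, adjusted p = 0.0088, limma). Striated muscle markers summed to 138 and 139 in fetal wild type and to 293 and 293 in fetal knockout, and their part in that difference was not tested.

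Peroxisome biogenesis and the mitochondrial core gave no call in either knockout comparison (limma). Of all genes tested, 4.96% were called higher and 2.53% lower in the adult, and 0.522% and 1.44% in the fetus. At those shares a count of 0 in such short lists does not set them apart. In the adult the 19 tested peroxisome genes had a median of -0.46, between -0.58 and 0.77. The 24 tested genes of the citrate cycle, respiratory chain and mitochondrial upkeep had a median of -0.31. Of these 24, 22 were below 0 as scaled here, against 58.6% of all genes tested. Among 27 partners and co-regulators of PPAR-alpha the adult median was -0.18 and 1 gene was called, higher, near the 4.96% over all genes. It was Lpin1, a phosphatidate phosphatase that also coactivates PPAR-alpha with PGC-1, at 22.0 and 21.0 in adult wild type and 47.0 and 46.8 in adult knockout (1.12 ± 0.05, adjusted p = 1.9e-06, limma). Its direction was thus opposite to that of Ppara and of the called members in the same RNA.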

How the data were processed

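RNA of 4 liver samples (adult and fetal, wild type and Btg2 knockout) was measured on 8 single-colour arrays, 2 technical duplicates per sample. Per the file headers, the deposited scanner files held background-subtracted processed intensities, made by the authors with Agilent Feature Extraction 10.7.3.1, for 59305 non-control spots of 55681 probes on 1 slide read in 1 scan. The headers place the duplicates of each group in slide rows 1 and 2 and each group in its own column, so column and group cannot be told apart. The steps behind the deposited value table are not stated in the headers or labels. Its intensities were linear, with a median of 18.1 and a 75th percentile of 185 in each column, and followed the scanner values at r of 0.995 to 0.999 across probes without gene centring, so the step that scaled them stays unknown.

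The log2 processed intensity was centred on the array's 75th percentile, leaving out control spots and 92 to 188 outlier spots per array; 0 spots were saturated. Probes were named through RefSeq (GRCm38.p6): 26762 had a symbol and 28919 had none. A gene was read from its probe of highest mean signal. It entered the test where both arrays of some group measured it well above background. R 4.3.3 and limma 3.58.1 fitted all 8 arrays as 4 groups (eBayes with trend), with Benjamini-Hochberg adjustment over 14564 genes. The pipeline was tested on simulated data with planted changes larger than 2-fold, so differences at the 2-fold limit were not tried there. The number of arrays limits the precision.

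The members, their roles and all lists were chosen with earlier results of these data known, so no list test is given. Every member is named. All arrays are given for Ppara, Cpt1a, Cpt2, Slc25a20, Acadm, Hadha, Ehhadh, Acaa1a, Acaa1b, Hsd17b4 and each member called in a knockout comparison or in the difference of both effects. Of the 4 other pathway lists, called genes are named, at most 5 per list by size. Alternatives were 5 scalings or sources (median; 75th percentile of detected probes; quantile; normexp with offset 50 and quantile; the deposited table), 2 filters, the mean of a gene's probes, no trend, array number as a block, fold alone, and each array left out. The normexp alternative had been planned on the mean signal and used the median signal, which the files hold. Array numbers did not pair the samples.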

Additional observations from a re-analysis of the deposited data

Results flagged for a closer look

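For 9 members the knockout difference in adult liver and that in fetal liver differed by the direct test, by at least 2-fold and with adjusted p from 1.8e-06 to 3.7e-05 (limma, 2 arrays per group). Pdk4 stood at -1.60 in the adult and 0.21 in the fetus, a double difference of -1.81. Vnn1 stood at -1.95 and -0.17, a double difference of -1.78. Ehhadh stood at -1.97 and -0.38, giving -1.59. Cd36 stood at -0.80 and 0.58, giving -1.38, and Decr2 at -1.09 and 0.28, giving -1.37. Pex11a stood at -1.16 and 0.10, giving -1.25. Hadhb stood at -1.12 and 0.03, giving -1.15, Decr1 at -1.02 and 0.12, giving -1.14, and Acaa1a at -1.07 and 0.02, giving -1.09. Each was lower on both slide rows. Hadhb, Decr1 and Acaa1a fell short of 2-fold under the 5 other scalings, and Decr1 also when its probes were averaged. The adult samples also differed in macrophage markers, whose part in these values was not tested.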

How the results depend on the processing

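Members called lower in the adult knockout numbered 10. They numbered 3 under median scaling, 4 under detected-probe scaling, 3 under quantile normalization, 4 under normexp and 3 in the deposited value table, and 8 to 11 when 1 array was left out. Leaving out any of the 4 adult arrays lost at least 1 call at the 2-fold limit (Cpt1a without wild-type array 1 or knockout array 1, Decr1 without wild-type array 1 or knockout array 2, Acsl1 without wild-type array 2 or knockout array 1). Calls of the double difference numbered 9, or 6 under those 5 settings, with 9 to 11 when 1 array was left out. Fetal calls were 0 under all 19 alternatives, and all 43 members stayed called between stages in both genotypes whichever array was left out. No called member changed direction. Array number as a replicate block gave 10 and 9 calls. The deviations of same-numbered arrays correlated at r of -0.14 to 0.08, so the number is not taken as a pairing. Higher calls made up 66.2% of all adult calls and 72.6% to 78.7% under the 5 scalings. That share was 62.1% and 67.1% to 78.3% for the double difference, 26.7% and 23.8% to 49.0% in the fetus, 49.4% and 30.2% to 44% between wild-type stages, and 48.1% and 32.7% to 45.4% between knockout stages. Between stages the median of all genes moved from -0.01 to between -0.64 and -0.19 in wild type. Among genes above background on all 8 arrays, 181 (1.71%) were called lower and 318 (3.00%) higher in the adult knockout, against 368 and 722, and 13 and 13 in the fetus, against 209 and 76. Normexp called 116 lower and 308 higher in the adult and 25 and 24 in the fetus. Without adult wild-type array 1, 664 were called lower in the adult. The cause of these shifts was not tested. Dim genes limit the comparisons, as for Abcd2 and Crat.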

Other observations

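Around the members, further genes of the fatty acid lists stood out in the double difference, chosen here after their values were seen. Of the 51 further fatty acid genes, 4 were called higher and 8 lower, against 6.05% and 3.69% of all genes tested. Nudt7, a peroxisomal hydrolase of CoA and acyl-CoA, was 54.5 and 52.1 in adult wild type and 131 and 133 in adult knockout, a rise of 1.31 ± 0.03 (adjusted p = 1.6e-07, limma), with a fetal difference of 0.04. Acacb, the acetyl-CoA carboxylase whose product malonyl-CoA inhibits carnitine palmitoyltransferase, gave -0.88 in the adult and 0.59 in the fetus, a double difference of -1.48 ± 0.08 (adjusted p = 1e-05, limma). Cat, the peroxisomal catalase, gave 0.77 and -0.23, a double difference of 1.0006 ± 0.06, just past 2-fold and against the direction of the called peroxisomal members. Across the 43 members, the adult and fetal knockout differences correlated at r = 0.003, as a description over genes that share libraries.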
